A study of Mus musculus with 12 samples.

Results

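The solute carrier (Slc) genes described here are those whose signal rose above background on arrays of 4 dendritic cell (DC) populations sorted from mouse lung. A gene was taken where a probe set carried 1 symbol and that symbol began with Slc, Slc2a1 and Slc16a3 being left out. It was kept where its brightest probe set, by the mean over all arrays, exceeded a signal of 200 on at least 3 of 12 arrays. Of 360 such genes with 684 probe sets, 169 were kept and 191 were not. The arrays are Affymetrix mouse genome arrays, and a signal is a linear intensity in arbitrary units, given per probe set by the MAS5 method. All mice were male C57BL/6 mice (C57BL/6J by the strain label) of 8 to 12 weeks, and all had received 100 ng of lipopolysaccharide, a bacterial wall component, with 100 ug of ovalbumin, a foreign protein, into the airway in 50 ul of saline. Lungs were taken 16 h later, so every group carries this exposure and no unexposed lung was analysed here. There were 2 conventional DC groups, the CD103+ cDC and the CD11bhi CD14lo cells, termed CD14lo cDC. There were 2 groups derived from monocytes, the CD11bhi CD14hi cells (CD14hi moDC) and the CD11bhi Ly6Chi cells (Ly6Chi moDC), which the labels call inf.moDCs. Each group had 3 arrays. Each biological replicate pooled 20 mice, the sort purity was above 93%, and 50 ng of RNA was amplified per sample. The labels do not say whether populations of 1 replicate number came from the same mice.

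Solute carriers are membrane proteins that move amino acids, sugars, metals, carboxylates, vitamins, nucleotides and ions across the plasma membrane and the membranes of lysosomes, mitochondria and the Golgi. Family members are numbered by sequence, so that a family often shares a class of substrate, and many work as exchangers or are driven by sodium or proton gradients. In phagocytes they set the supply of cystine, arginine and glucose, move iron, zinc and copper in and out of phagosomes, and empty lysosomes of the amino acids, peptides and nucleosides freed by digestion. The members were grouped here into 17 classes by family.

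The threshold rested on the same signals that are compared below. Of the 169 members, 106 exceeded a signal of 200 on all 12 arrays. Arrays above 200 came from all 4 populations for 132 members, from 3 populations for 25, from 2 for 11 and from 1 for 1, the organic anion transporter Slco2b1. Where a member passed through 1 or 2 populations, the choice itself set the contrast with the others, and a difference along it is a description. A member that passed through a few populations had arrays above 200 in these alone, so counts over the members are a description of this choice. The mean over 12 arrays exceeded 200 for 155 members, and counts for these are given beside the others. Just inside the threshold were Slc25a13, Slc25a35 and Slc16a14, whose third-highest array was at 205.6, 208.1 and 209.9. Just outside were Slc22a18, Slc14a1 and Slc25a53, whose third-highest array was at 192.8, 187.5 and 183.7. Among genes below it were the iron exporter Slc40a1, which ran from 4.40 to 59.4 over the arrays, and the phosphate transporter Slc34a2 of alveolar type II cells, which ran from 2.03 to 46.9.

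Every probe set has its own affinity, so levels are compared between populations and never between genes. Median signals of the arrays ran from 72.4 to 109. The ratio of 3' to 5' control signals for Gapdh, which climbs as RNA degrades, lay between 1.68 and 3.27 in CD103+ cDC and between 1.48 and 2.29 on the other arrays. Replicates 1 and 3 of CD103+ cDC had the 2 highest ratios, 3.26 and 3.27. The same ratio for Actb was 1.12 and 1.03 on these 2 arrays and lay between 0.969 and 1.05 on the others. By markers, all 6 conventional DC markers tested were higher in cDC and all 8 monocyte and macrophage markers were higher in moDC. The summed signal of 13 lung epithelial markers lay between 4950.3 and 9616 for CD103+ cDC and between 1994 and 4810.2 for the other arrays. That of 8 neutrophil markers was highest in Ly6Chi moDC, from 4150.1 to 4417, against 358 to 2236 in the other populations. That of 7 fibroblast markers was highest in CD14hi moDC, from 4756 to 5591, against 1413 to 4526. The sum of 8 NK cell markers was highest in CD14lo cDC, from 7215 to 8304, against 1483 to 3881 in the other populations. Klrd1 gave most of it, with a mean of 6418 in CD14lo cDC, while Ncr1, Nkg7 and Eomes had means of 26.5 or less in every population. The sum of 8 T cell markers ran from 1052 to 2177 over all arrays, and the means of Cd3e, Cd3d and Cd3g were 76.6 or less. The sum of 4 red cell markers was 214 or less on every array. The part of these markers in the results was not tested.

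The first comparison set the mean of both conventional populations against the mean of both monocyte-derived populations. Of the 169 members, 60 were lower and 35 higher in cDC at an adjusted p under 0.05, by a linear model (limma) of log2(signal + 50.0003) fitted over all 10929 genes tested and adjusted over them by Benjamini-Hochberg. Such genes are termed called below. Over all genes tested, 20.7% were called lower and 20.8% higher, so that 35.5% of members against 20.7% of genes were lower in cDC, and the share of members higher was at the background. The genes tested had only to exceed the array median, which ran from 72.4 to 109, on 3 or more arrays. Shares over all genes, here and below, therefore rest on a lower signal threshold than the 200 set for members. Among the members with a mean above 200 on the 12 arrays, 58 were lower and 30 higher. The median log2 difference of the members was -0.16, against 0.00 for all genes tested. Every moDC array lay above every cDC array for 28 members (6.71% of all genes), and every cDC array lay above every moDC array for 11 (4.97% of all genes). The amino acid exchanger light chain Slc7a8, the phagosomal metal transporter Slc11a1 and the aromatic amino acid transporter Slc16a10 were among the 28, and the lysosomal protein Slc46a3 and the zinc transporter Slc30a4 were among the 11. In bulk samples, fewer cells of a type and less RNA per cell cannot be told apart.

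The highest of the 4 population means lay in Ly6Chi moDC for 72 of 169 members, or 42.6% against 29.1% of all genes. It lay in CD103+ cDC for 35, or 20.7% against 33.4% of all genes, in CD14hi moDC for 36 (19.7% of all genes) and in CD14lo cDC for 26 (17.8% of all genes). Means climbed stepwise from CD103+ cDC to CD14lo cDC, then to CD14hi moDC and last to Ly6Chi moDC, for 37 members, or 21.9% against 12% of all genes. They stepped down in that order for 12, or 7.1% against 11.9%. A difference among the 4 populations (F test of the same model) was called for 113 members, or 66.9% against 51.1% of all genes, which had passed a lower signal threshold. The means of 70 members spanned at least 1 on the log2 scale, and those of 26 spanned at least 2, with no share over all genes worked out for these spans.

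**Figure D1:**
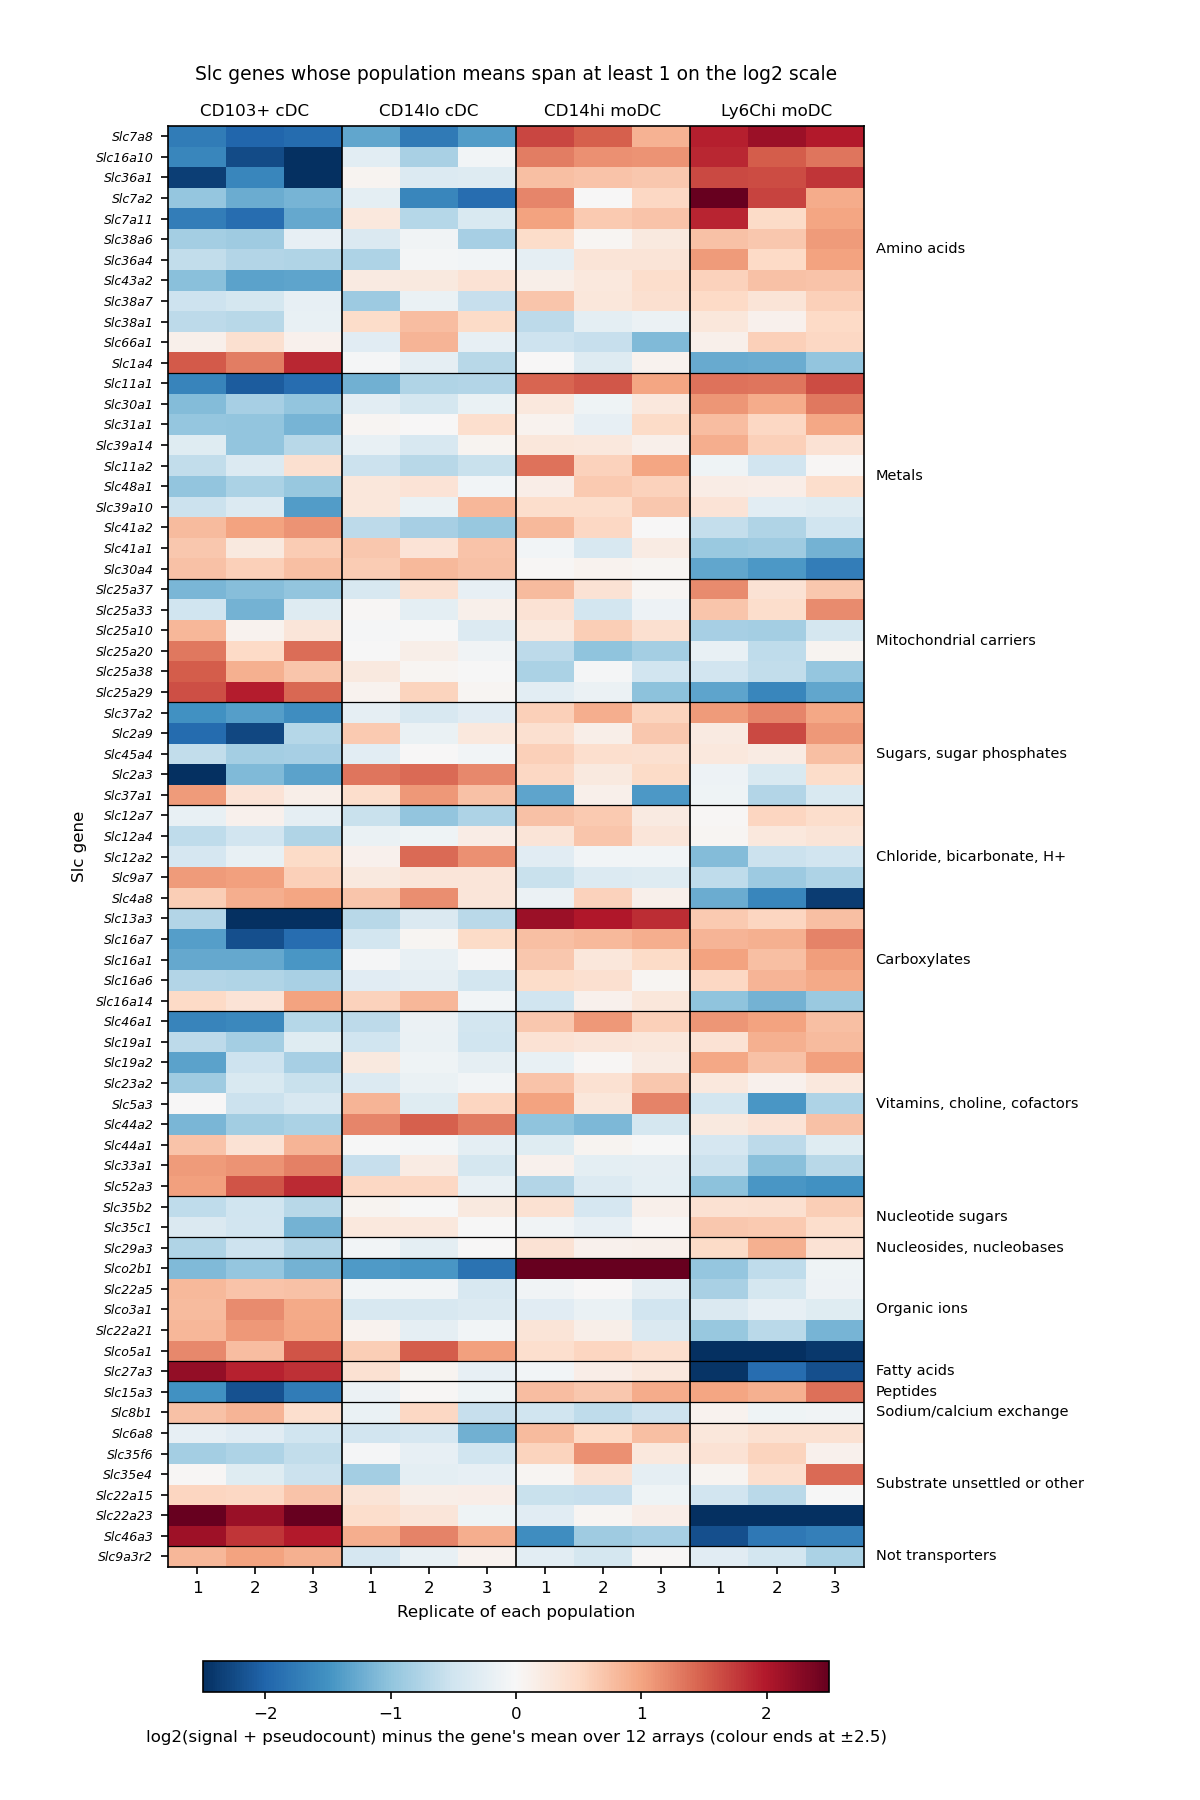
Signals of the 70 Slc genes whose population means span at least 1 on the log2 scale. Rows are genes grouped by substrate class, columns are the 3 arrays of each population, and colour is log2(signal + 50.0003) minus the gene's mean over 12 arrays, red above and blue below it. Amino acid, metal and carboxylate rows are mostly blue in CD103+ cDC and red in Ly6Chi moDC, while rows of organic ion transporters are mostly red in CD103+ cDC.

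The pairwise comparisons placed the largest share of called members between CD103+ cDC and Ly6Chi moDC. There 68 members were lower and 30 higher in CD103+ cDC, against 24.3% and 23.2% of all genes. Between CD103+ cDC and CD14hi moDC, 59 were lower and 29 higher in CD103+ cDC, against 20.3% and 16.9% of all genes, and the split was 44 and 34 where each array was centred at its median. That centring moved the median log2 difference of all genes to 0.12, and shares of all genes under it were not worked out. Between the 2 conventional populations, 39 were lower and 23 higher in CD103+ cDC than in CD14lo cDC, against 15.3% and 13.4% of all genes. With replicate 2 as the only CD103+ cDC array, which leaves out the arrays with the highest Gapdh ratio, these counts were 25 and 13, and against CD14hi moDC they were 39 and 19. The lone array is then taken to vary as the other groups do.

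Ly6Chi moDC had 40 members higher and 25 lower than CD14lo cDC, against 11.2% and 14% of all genes, or 52 and 19 with arrays centred at their medians. CD14hi moDC had 28 members higher and 15 lower than CD14lo cDC, against 9.24% and 6.95% of all genes, or 21 and 20 with median centring. Median centring moved the median log2 difference of all genes to 0.16 for Ly6Chi moDC and to -0.14 for CD14hi moDC against CD14lo cDC. The shares of all genes given are without this centring. Between the 2 monocyte-derived populations, 18 were higher and 20 lower in Ly6Chi moDC than in CD14hi moDC, against 6.82% and 11.4% of all genes. This last count depended on the scaling, since 58 were higher and 16 lower with median centring, under which the median difference of all genes moved to 0.29. The count of 18 was 10 with no filter on low signals, 11 without CD14hi moDC replicate 2, and 10 without Ly6Chi moDC replicate 1 or replicate 3.

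By substrate class, metal and amino acid transporters had more members lower in cDC than any other class, 12 and 11 of the 60. Of 23 amino acid transporters, 11 were lower and 3 higher in cDC than in moDC, with a median log2 difference of -0.28. Of 23 metal transporters, 12 were lower and 2 higher, with a median of -0.44. Of 6 carboxylate transporters, 4 were lower and 1 higher, with a median of -1.25, and of 11 transporters of sugars and sugar phosphates 5 were lower and 3 higher. Of 33 mitochondrial carriers, the class with the most members, 7 were lower and 5 higher, with a median of -0.11. Organic ion transporters went the other way, with 4 of 6 higher and 1 lower and a median of 0.58. Slco5a1 in this class and Slc16a14 among the carboxylate transporters, both higher in cDC, are of unsettled substrate and were placed by family. These class counts were the same with quantile normalization and with each array centred at its median. They are read beside the shares for all genes, 20.8% higher and 20.7% lower, and no class was tested against another.

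**Figure D2:**
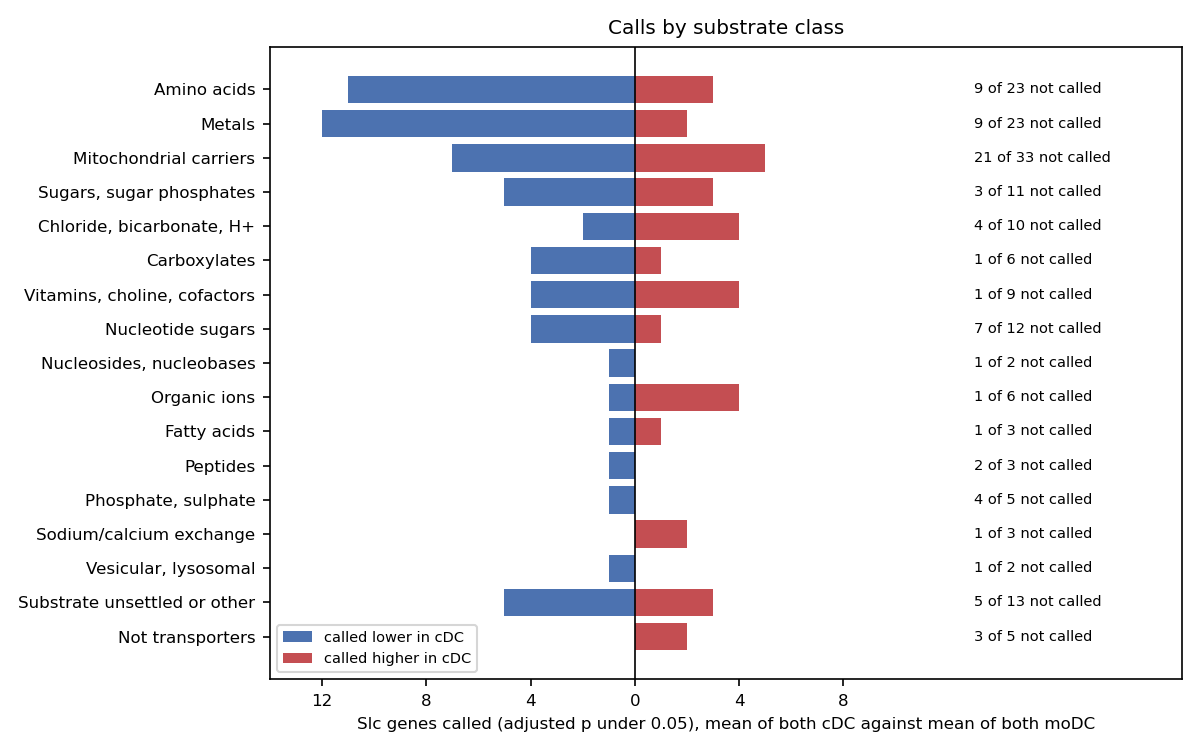
Number of Slc genes called in the comparison of both cDC with both moDC populations, by substrate class. Bars to the left count genes lower in cDC and bars to the right genes higher in cDC at a limma adjusted p under 0.05, and the words at the right give the number not called. Metals (12 to 2) and amino acids (11 to 3) have the longest bars to the left.

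The widest differences among amino acid transporters were those of Slc7a8, Slc16a10 and Slc36a1. Slc7a8 (Affymetrix probe set 1417929_at) encodes the light chain of a sodium-independent exchanger of neutral amino acids. Its signals were 160.02, 128 and 135 for CD103+ cDC, 235, 155 and 215 for CD14lo cDC, 2184, 1935 and 1228 for CD14hi moDC, and 2630.3, 3052 and 2729 for Ly6Chi moDC. Both moDC populations stood clear of both cDC populations, whose arrays overlapped each other. The cDC mean was 10.3-fold lower than the moDC mean on the log2(signal + 50.0003) scale (log2 difference -3.37 ± 0.14, adjusted p = 3.04e-12, SE of 12 arrays), a scale on which folds of dim genes are understated. Slc16a10 (probe set 1436368_at) encodes a carrier of aromatic amino acids and thyroid hormones. Its signals were 115, 57.9 and 3.52 for CD103+ cDC, 373, 243 and 435 for CD14lo cDC, 1192, 1083 and 1056 for CD14hi moDC, and 1847, 1402 and 1236 for Ly6Chi moDC. They stepped up from CD103+ cDC to CD14lo cDC, to CD14hi moDC and to Ly6Chi moDC without overlap, the last gap being narrow. Where another processing setting or a left-out array moved a fold by over 1.5 times, the range of the log2 difference over these alternatives is given. CD103+ cDC were 3.98-fold lower than CD14lo cDC (log2 difference -1.99 ± 0.30, -2.85 to -1.14 over the alternatives, adjusted p = 5.44e-05), and CD14hi moDC were 2.96-fold higher than CD14lo cDC (log2 difference 1.56 ± 0.30, adjusted p = 0.00106).

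Slc36a1 encodes a proton-coupled amino acid transporter of the lysosomal membrane, and Slc7a11 the light chain of the exchanger that brings in cystine for glutathione in return for glutamate. The 250 bases before the start of each, from RefSeq on the build GRCm38.p6, are shown because they hold motifs linked to the roles of these genes. Capitals mark CACGTGAC, the core of the lysosomal gene element, in the Slc36a1 stretch (chr11:55204090-55204339, + strand), and TGATGCAA, the core of the amino acid response element, on either strand in the Slc7a11 stretch (chr3:50443614-50443863, - strand).
Slc36a1: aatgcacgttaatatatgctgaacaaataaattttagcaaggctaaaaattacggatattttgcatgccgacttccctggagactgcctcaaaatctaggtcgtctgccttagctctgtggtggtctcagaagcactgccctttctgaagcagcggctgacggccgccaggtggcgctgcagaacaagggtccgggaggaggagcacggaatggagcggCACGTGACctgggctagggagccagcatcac
Slc7a11: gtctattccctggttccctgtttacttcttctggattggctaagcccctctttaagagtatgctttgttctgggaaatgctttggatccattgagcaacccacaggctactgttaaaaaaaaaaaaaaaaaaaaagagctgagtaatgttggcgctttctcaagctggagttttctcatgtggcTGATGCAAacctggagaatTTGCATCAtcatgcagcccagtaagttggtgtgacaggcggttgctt
The letters CACGTGAC stood on either strand in 1.85% of 32851 mouse promoters of this length and in 5.99% of 167 promoters of 129 members. The letters TGATGCAA stood in 0.791% of all promoters and in 3 of 167 member promoters (1.8%), those of Slc7a11, Slc7a7 and Slc50a1. A match is a description of the sequence and shows no binding.

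The signals of Slc36a1 (probe set 1428793_at) were 50.6, 115 and 33.1 for CD103+ cDC, 487, 356 and 361 for CD14lo cDC, 807, 788 and 761 for CD14hi moDC, and 1556, 1527 and 1707 for Ly6Chi moDC. The 4 populations formed 4 steps that did not overlap. Slc36a1 was 4.02-fold lower in CD103+ cDC than in CD14lo cDC (log2 difference -2.01 ± 0.22, adjusted p = 1.01e-06) and 1.97-fold higher in Ly6Chi moDC than in CD14hi moDC (log2 difference 0.98 ± 0.22, adjusted p = 0.0031). Those of Slc7a11 (probe set 1420413_at) were 121, 101 and 182 for CD103+ cDC, 632, 298 and 383 for CD14lo cDC, 1094, 847 and 882 for CD14hi moDC, and 2059, 735 and 1069.8 for Ly6Chi moDC. CD103+ cDC were lowest on every array, CD14lo cDC came next, and both moDC populations lay above them with overlap between the moDC. The cDC mean of Slc7a11 was 3.77-fold lower than the moDC mean (log2 difference -1.91 ± 0.21, adjusted p = 5.96e-07).

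Slc7a2 encodes a carrier of arginine and other cationic amino acids that is induced in activated macrophages. Its signals (probe set 1450703_at) were 131, 99.4 and 108 for CD103+ cDC, 249.7, 64.4 and 44.3 for CD14lo cDC, 772, 305 and 454 for CD14hi moDC, and 2339, 1095 and 624 for Ly6Chi moDC. The cDC arrays were all below the moDC arrays, and the spread among the Ly6Chi moDC arrays was wide. Slc7a2 was 5.19-fold lower in cDC (log2 difference -2.38 ± 0.30, adjusted p = 3.07e-06), and the moDC populations did not differ past the threshold (log2 difference 1.22 ± 0.42, adjusted p = 0.0528). The other cationic carrier, Slc7a1, was nearly level, with signals of 2108 ± 103 for CD103+ cDC, 2257 ± 222 for CD14lo cDC, 2232 ± 286 for CD14hi moDC and 2063 ± 217 for Ly6Chi moDC (SD, n = 3). Slc43a2, a facilitator of branched-chain and aromatic amino acid movement, had means of 2503 ± 294 for CD103+ cDC, 7215 ± 355 for CD14lo cDC, 7303 ± 756 for CD14hi moDC and 9521 ± 505 for Ly6Chi moDC (SD, n = 3). It was 2.85-fold lower in CD103+ cDC than in CD14lo cDC (log2 difference -1.51 ± 0.12, adjusted p = 2.65e-08), with all CD103+ cDC arrays below all others.

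Slc1a4, an exchanger of alanine, serine and cysteine, ran against the class. Its signals (probe set 1456003_a_at) were 1272, 1066 and 1644 for CD103+ cDC, 397, 341 and 234 for CD14lo cDC, 413, 316 and 439 for CD14hi moDC, and 141, 143 and 181 for Ly6Chi moDC. CD103+ cDC were above all other arrays and Ly6Chi moDC below all others, with CD14lo cDC and CD14hi moDC overlapping between them. Slc1a4 was 3.69-fold higher in CD103+ cDC than in CD14lo cDC (log2 difference 1.88 ± 0.21, adjusted p = 1.60e-06) and 2.14-fold lower in Ly6Chi moDC than in CD14hi moDC (log2 difference -1.10 ± 0.21, adjusted p = 9.72e-04). Slc6a6, the taurine transporter, had means of 9731 ± 1237 for CD103+ cDC, 7313 ± 252 for CD14lo cDC, 8164 ± 166 for CD14hi moDC and 7843 ± 216 for Ly6Chi moDC (SD, n = 3). Slc3a2 and Slc7a5, named for their role after their values were seen, are the heavy chain that Slc7a8 and Slc7a11 pair with and another of its light chains. The heavy chain Slc3a2 had means of 5874 ± 1057 for CD103+ cDC, 4095 ± 181 for CD14lo cDC, 6042 ± 583 for CD14hi moDC and 7584 ± 262 for Ly6Chi moDC (SD, n = 3) and was 1.38-fold lower in cDC (log2 difference -0.47 ± 0.10, adjusted p = 6.20e-04). The light chain Slc7a5 was 1.34-fold higher in cDC (log2 difference 0.43 ± 0.12, adjusted p = 0.00857), the direction opposite to Slc7a8 and Slc7a11.

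Genes outside the Slc families that work on the same substrates were mixed. Of 17 tested targets of the amino acid response factor ATF4, 5 were lower and 3 higher in cDC than in moDC, with a median log2 difference of -0.05, against 0.00 for all genes tested. Over all genes 20.7% were called lower and 20.8% higher, and the 2 shares serve for each list here. The stress protein gene Nupr1 (log2 difference -2.08 ± 0.17, adjusted p = 1.54e-08) and the asparagine synthetase gene Asns (log2 difference -1.34 ± 0.16, adjusted p = 2.26e-06) were lower in cDC. Chac1, which degrades glutathione, was higher in cDC (log2 difference 1.38 ± 0.22, adjusted p = 5.32e-05). Of 12 tested genes of glutathione synthesis and NRF2 targets, 3 were lower and 1 higher in cDC, with a median of -0.11. The catalytic subunit of glutamate-cysteine ligase, Gclc, was higher in cDC (log2 difference 1.00 ± 0.13, adjusted p = 5.55e-06) and its modifier subunit Gclm was lower (log2 difference -0.73 ± 0.13, adjusted p = 1.46e-04). Of 19 genes of nutrient sensing at the lysosome, 7 were lower and 2 higher in cDC, with a median of -0.07. The lysosomal transcription factor gene Mitf was lower (log2 difference -2.74 ± 0.16, adjusted p = 9.51e-11), and Rragd, a GTPase of the mTORC1 docking complex, was higher (log2 difference 1.76 ± 0.15, adjusted p = 1.94e-08).

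**Figure D3:**
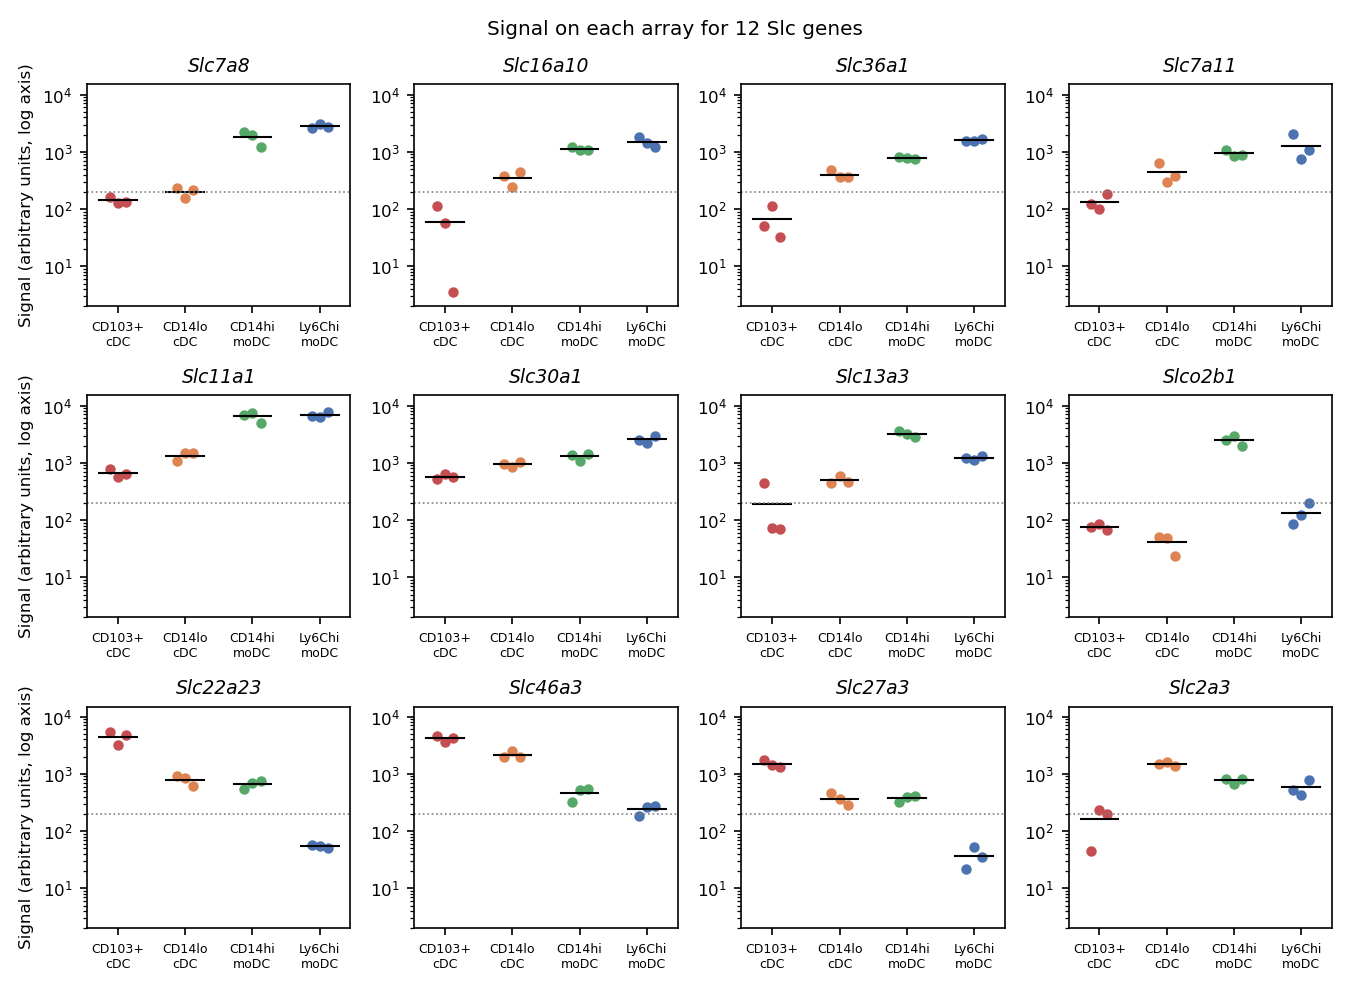
Signal on each of the 12 arrays for 12 Slc genes, on a log axis in arbitrary units, with a point per array, a bar at the mean of 3 arrays and a dotted line at the threshold of 200. Slc7a8 and Slc11a1 separate both moDC from both cDC populations, Slco2b1 is high in CD14hi moDC alone, and Slc22a23 and Slc27a3 are highest in CD103+ cDC and lowest in Ly6Chi moDC.

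Among metal transporters, Slc11a1 had the widest differences. It encodes a carrier that removes iron and manganese from phagosomes and sets resistance to bacteria that live inside cells. Its signals (probe set 1420361_at) were 767, 555 and 635 for CD103+ cDC, 1056, 1469 and 1476 for CD14lo cDC, 6965, 7468 and 5009 for CD14hi moDC, and 6482, 6367 and 7816 for Ly6Chi moDC. Each CD103+ cDC array was below each CD14lo cDC array, and all of these were below the moDC arrays, which overlapped. The cDC mean was 6.83-fold lower than the moDC mean (log2 difference -2.77 ± 0.12, adjusted p = 4.93e-12), and CD103+ cDC were 1.96-fold lower than CD14lo cDC (log2 difference -0.97 ± 0.18, adjusted p = 3.44e-04). Slc11a2, the related proton-coupled importer of ferrous iron, was instead highest in CD14hi moDC, with means of 584 ± 241 for CD103+ cDC, 404 ± 27.1 for CD14lo cDC, 1338 ± 374 for CD14hi moDC and 562 ± 109 for Ly6Chi moDC (SD, n = 3). It was 2.99-fold higher there than in CD14lo cDC (log2 difference 1.58 ± 0.24, adjusted p = 1.13e-04) and 2.24-fold lower in Ly6Chi moDC than in CD14hi moDC (log2 difference -1.16 ± 0.24, adjusted p = 0.00188).

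Slc30a1, the zinc exporter of the plasma membrane that responds to metal, and Slc30a4, a zinc carrier of intracellular vesicles, went in opposite directions. The stretch before the start of Slc30a1 (RefSeq, GRCm38.p6, chr1:191906531-191906780, + strand) is shown because it holds cores that bear on metal and oxidant responses. Capitals mark a core of the metal response element, TGCACNC, and a core of the antioxidant response element, TGACNNNGC, on either strand.
Slc30a1: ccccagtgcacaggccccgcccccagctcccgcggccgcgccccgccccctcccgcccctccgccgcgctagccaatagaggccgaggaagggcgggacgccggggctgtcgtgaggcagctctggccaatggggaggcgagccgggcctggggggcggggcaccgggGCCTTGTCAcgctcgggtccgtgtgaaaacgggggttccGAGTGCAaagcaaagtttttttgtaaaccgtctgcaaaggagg
Over all promoters the 2 motifs stood in 10.4% and 10.2%, and over the member promoters in 12.6% and 16.8%. Another core of the metal response element, TGCGCNC, stood in 12.5% of all promoters and in 18% of member promoters.

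The signals of Slc30a1 (probe set 1436164_at) were 519.9, 628 and 562 for CD103+ cDC, 963, 837 and 1028 for CD14lo cDC, 1395, 1077 and 1409 for CD14hi moDC, and 2539.8, 2235 and 2946 for Ly6Chi moDC. The populations formed 4 steps without overlap, from CD103+ cDC up to Ly6Chi moDC. Slc30a1 was 2.38-fold lower in cDC than in moDC (log2 difference -1.25 ± 0.11, adjusted p = 3.92e-08) and 1.95-fold higher in Ly6Chi moDC than in CD14hi moDC (log2 difference 0.97 ± 0.16, adjusted p = 2.29e-04). The signals of Slc30a4 (probe set 1418843_at) were 1959, 1778 and 1991 for CD103+ cDC, 1833, 2079.6 and 1958 for CD14lo cDC, 1184, 1229 and 1194 for CD14hi moDC, and 441, 398 and 316 for Ly6Chi moDC. Here both cDC populations overlapped and lay above CD14hi moDC, and Ly6Chi moDC lay below all others. Slc30a4 was 2.898-fold lower in Ly6Chi moDC than in CD14hi moDC (log2 difference -1.54 ± 0.15, adjusted p = 3.49e-07). The Golgi zinc carrier Slc30a7 was nearly level, with means of 905 ± 160.4 for CD103+ cDC, 871 ± 144 for CD14lo cDC, 812 ± 11.4 for CD14hi moDC and 870.3 ± 75.7 for Ly6Chi moDC (SD, n = 3), and the zinc importer Slc39a1 was 1.56-fold lower in cDC (log2 difference -0.64 ± 0.10, adjusted p = 4.32e-05).

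Slc31a1 and Slc48a1 were lowest in CD103+ cDC. The copper importer Slc31a1 had means of 183 ± 17.5 for CD103+ cDC, 487 ± 86.2 for CD14lo cDC, 479 ± 127 for CD14hi moDC and 763 ± 125 for Ly6Chi moDC (SD, n = 3) and was 2.29-fold lower in CD103+ cDC than in CD14lo cDC (log2 difference -1.20 ± 0.20, adjusted p = 1.69e-04). The related copper carrier Slc31a2, named after its values were seen, was not called by the F test (adjusted p = 0.0957). Its log2 difference between cDC and moDC was -0.12 on the probe set used and -0.64 on another. On that other probe set the means were 772 for CD103+ cDC, 757 for CD14lo cDC, 1256 for CD14hi moDC and 1152 for Ly6Chi moDC. Slc48a1, which moves heme out of lysosomes, had means of 582 ± 48.7 for CD103+ cDC, 1302 ± 193 for CD14lo cDC, 1595 ± 285 for CD14hi moDC and 1367 ± 152 for Ly6Chi moDC (SD, n = 3) and was 2.13-fold lower in CD103+ cDC than in CD14lo cDC (log2 difference -1.09 ± 0.17, adjusted p = 6.40e-05). Of 14 tested genes of iron handling, 6 were lower and 1 higher in cDC, with a median log2 difference of -0.16, against 20.7% lower and 20.8% higher over all genes. Hmox1, which opens heme (log2 difference -2.91 ± 0.16, adjusted p = 8.47e-11), and Steap3, a ferrireductase (log2 difference -1.74 ± 0.21, adjusted p = 1.93e-06), were the 2 with the largest differences. Of 4 genes of the metallothionein and zinc response, 2 were higher in cDC and none lower, against the same shares. The metallothionein gene Mt2, which binds zinc, was higher in cDC (log2 difference 0.78 ± 0.13, adjusted p = 7.25e-05), with means of 9499 ± 2066 for CD103+ cDC, 4658 ± 1142 for CD14lo cDC, 8149.7 ± 1332 for CD14hi moDC and 1766 ± 184 for Ly6Chi moDC (SD, n = 3).

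All 6 carboxylate transporters were called by the F test. Slc13a3, a sodium-coupled importer of succinate and other dicarboxylates, had signals (probe set 1438377_x_at) of 438, 72.97 and 70.8 for CD103+ cDC, 452, 579.7 and 457 for CD14lo cDC, 3547, 3206 and 2864 for CD14hi moDC, and 1234, 1135 and 1323 for Ly6Chi moDC. CD14hi moDC lay above all other arrays and Ly6Chi moDC next, and within CD103+ cDC replicate 1 lay far above the other two. Slc13a3 was 5.97-fold higher in CD14hi moDC than in CD14lo cDC (log2 difference 2.58 ± 0.35, adjusted p = 3.36e-05), 2.54-fold lower in Ly6Chi moDC than in CD14hi moDC (log2 difference -1.34 ± 0.35, adjusted p = 0.0108) and 2.81-fold lower in CD103+ cDC than in CD14lo cDC (log2 difference -1.49 ± 0.35, -2.16 to -1.15 over the alternatives, adjusted p = 0.00347). The last difference was -2.16 without CD103+ cDC replicate 1. The fibroblast markers were also highest in CD14hi moDC, where their summed signal ran from 4756 to 5591, and their part in this was not tested.

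Slc16a1 and Slc16a7 are proton-coupled carriers of lactate and pyruvate. The stretch before the start of Slc16a1 (RefSeq, GRCm38.p6, chr3:104638414-104638663, + strand) is shown because it holds the lysosomal core CACGTGAC and the antioxidant core TGACNNNGC, which overlap, and further on the metal core TGCGCNC. Capitals mark the matches, read on either strand.
Slc16a1: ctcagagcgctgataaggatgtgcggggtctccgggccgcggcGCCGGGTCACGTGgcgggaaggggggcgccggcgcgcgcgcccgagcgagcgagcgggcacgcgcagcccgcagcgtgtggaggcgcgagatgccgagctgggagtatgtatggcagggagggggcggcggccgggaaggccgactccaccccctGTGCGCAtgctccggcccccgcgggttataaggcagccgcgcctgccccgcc
The signals of Slc16a1 (probe set 1415802_at) were 121, 122 and 103 for CD103+ cDC, 359, 318 and 372 for CD14lo cDC, 614, 462 and 537 for CD14hi moDC, and 789, 652 and 817 for Ly6Chi moDC. CD103+ cDC were lowest, CD14lo cDC next, and the moDC arrays above both without overlap. Slc16a1 was 2.42-fold lower in CD103+ cDC than in CD14lo cDC (log2 difference -1.27 ± 0.17, adjusted p = 1.83e-05) and 2.66-fold lower in cDC than in moDC (log2 difference -1.41 ± 0.12, adjusted p = 2.62e-08). Slc16a7 had means of 26.6 ± 22.5 for CD103+ cDC, 228 ± 87.2 for CD14lo cDC, 419 ± 28.03 for CD14hi moDC and 479 ± 83.3 for Ly6Chi moDC (SD, n = 3), which follow the order of Slc16a1. It was 3.602-fold lower in CD103+ cDC than in CD14lo cDC (log2 difference -1.85 ± 0.25, -2.81 to -1.35 over the alternatives, adjusted p = 1.52e-05). Slc16a14, of unsettled substrate and just above the signal threshold, went the other way, with means of 224 ± 69.4 for CD103+ cDC, 196 ± 72.7 for CD14lo cDC, 126 ± 46.3 for CD14hi moDC and 35.7 ± 7.54 for Ly6Chi moDC (SD, n = 3) and a 2.09-fold higher level in cDC, the source of all its arrays above 200.

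Sugar transporters did not follow 1 order. Slc2a3, a glucose importer of high affinity, had signals (probe set 1437052_s_at) of 44.6, 238 and 195 for CD103+ cDC, 1508, 1607 and 1364 for CD14lo cDC, 828, 677 and 814 for CD14hi moDC, and 515, 423 and 795 for Ly6Chi moDC. CD14lo cDC lay above all other arrays and CD103+ cDC below all others, so that the conventional populations stood at opposite ends. The NK cell markers, whose sum was highest in CD14lo cDC, moved with this peak, and their part was not tested. CD103+ cDC were 8.17-fold lower than CD14lo cDC (log2 difference -3.03 ± 0.31, -3.42 to -2.13 over the alternatives, adjusted p = 4.81e-07), while the lineage comparison of Slc2a3 was not called (log2 difference -0.39 ± 0.22, adjusted p = 0.161). The urate carrier Slc2a9 had means of 97.4 ± 89.4 for CD103+ cDC, 452 ± 140.3 for CD14lo cDC, 500.1 ± 99.5 for CD14hi moDC and 828 ± 404 for Ly6Chi moDC (SD, n = 3) and was 3.71-fold lower in CD103+ cDC than in CD14lo cDC (log2 difference -1.89 ± 0.36, -2.53 to -1.54 over the alternatives, adjusted p = 5.81e-04). Slc37a2, a sugar phosphate exchanger of the endoplasmic reticulum, had means of 115 ± 10.3 for CD103+ cDC, 324 ± 22.7 for CD14lo cDC, 697 ± 104 for CD14hi moDC and 932 ± 88.8 for Ly6Chi moDC (SD, n = 3), rising from CD103+ cDC through to Ly6Chi moDC. It was 3.44-fold lower in cDC (log2 difference -1.78 ± 0.12, adjusted p = 7.63e-10), with all cDC arrays below all moDC arrays. Its relative Slc37a1 lay 2.42-fold higher in cDC, its 3 arrays above 200 being all of cDC, with means of 188 ± 85.6 for CD103+ cDC, 225 ± 61.5 for CD14lo cDC, 49.2 ± 65.1 for CD14hi moDC and 72.5 ± 26.4 for Ly6Chi moDC (SD, n = 3). Slc2a6, a glucose transporter family member of lysosomes, was 1.56-fold higher in cDC (log2 difference 0.64 ± 0.13, adjusted p = 6.09e-04).

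The 6 transporters of organic ions were all called by the F test, with different populations at the top. Slco2b1, an importer of steroid sulphates and many drugs, had signals (probe set 1433933_s_at) of 74.5, 86.1 and 67.98 for CD103+ cDC, 50.5, 48.1 and 23.9 for CD14lo cDC, 2487, 2969 and 2007 for CD14hi moDC, and 86.02, 121 and 199 for Ly6Chi moDC. The CD14hi moDC arrays were the only arrays above 200, and every other array lay at 199 or below. Slco2b1 lay 27.9-fold higher in CD14hi moDC than in CD14lo cDC and 13.96-fold lower in Ly6Chi moDC than in CD14hi moDC. The direction of this contrast was set by its passing the threshold through CD14hi moDC alone. Another probe set of Slco2b1 had a mean of 1052 in CD14hi moDC and of 30.5, 19.6 and 51.2 in the CD103+, CD14lo and Ly6Chi cells. Slco5a1, a family member of unsettled substrate, had signals (probe set 1440874_at) of 1162, 856 and 1524 for CD103+ cDC, 762, 1468 and 1026 for CD14lo cDC, 655, 719 and 658 for CD14hi moDC, and 27.6, 21.5 and 50.2 for Ly6Chi moDC. It was present in 3 populations and near background in Ly6Chi moDC, where it was 8.84-fold lower than in CD14hi moDC (log2 difference -3.14 ± 0.23, -4.05 to -2.55 over the alternatives, adjusted p = 1.51e-08).

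Slco3a1, a carrier of prostaglandins and other organic anions, was highest in CD103+ cDC, with means of 1052 ± 154 for CD103+ cDC, 377 ± 11.02 for CD14lo cDC, 401 ± 50.7 for CD14hi moDC and 405 ± 26.1 for Ly6Chi moDC (SD, n = 3). It was 2.56-fold higher there than in CD14lo cDC (log2 difference 1.36 ± 0.17, adjusted p = 4.76e-06), and all CD103+ cDC arrays lay above all others. Slc22a21, a carnitine carrier, had means of 356 ± 35.7 for CD103+ cDC, 149.8 ± 20.4 for CD14lo cDC, 168 ± 50.8 for CD14hi moDC and 60.3 ± 18.5 for Ly6Chi moDC (SD, n = 3) and passed through arrays of CD103+ cDC and CD14hi moDC. It lay 2.03-fold higher in CD103+ cDC than in CD14lo cDC. The lung epithelial markers were also highest in CD103+ cDC, where their summed signal ran from 4950.3 to 9616, and their part in these differences was not tested.

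The widest range of all members, 5.39 on the log2 scale, was that of Slc22a23, an organic ion transporter family member with no settled substrate. Its signals (probe set 1453004_at) were 5287, 3171 and 4779.8 for CD103+ cDC, 919, 835 and 620.2 for CD14lo cDC, 537, 694 and 755 for CD14hi moDC, and 57.5, 53.8 and 51.1 for Ly6Chi moDC. CD103+ cDC lay above all other arrays, Ly6Chi moDC below all others, and the middle populations overlapped. Slc22a23 was 5.25-fold higher in CD103+ cDC than in CD14lo cDC (log2 difference 2.39 ± 0.20, adjusted p = 4.61e-08), 6.78-fold lower in Ly6Chi moDC than in CD14hi moDC (log2 difference -2.76 ± 0.20, -3.38 to -2.29 over the alternatives, adjusted p = 1.32e-08), and 41.9-fold higher in CD103+ cDC than in Ly6Chi moDC (log2 difference 5.39 ± 0.20, 4.84 to 6.08 over the alternatives, adjusted p = 3.62e-13). Slc27a3, of the fatty acid transport family, had signals (probe set 1427180_at) of 1746, 1433 and 1330.02 for CD103+ cDC, 461, 357 and 287 for CD14lo cDC, 323, 389 and 417 for CD14hi moDC, and 21.7, 53.7 and 34.6 for Ly6Chi moDC. It showed the same arrangement, CD103+ cDC above all arrays and Ly6Chi moDC below all. Slc27a3 was 3.74-fold higher in CD103+ cDC than in CD14lo cDC (log2 difference 1.90 ± 0.20, adjusted p = 1.03e-06) and 4.96-fold lower in Ly6Chi moDC than in CD14hi moDC (log2 difference -2.31 ± 0.20, -3.10 to -1.80 over the alternatives, adjusted p = 1.57e-07). Its relative Slc27a1, an importer of long-chain fatty acids, was instead 1.702-fold lower in cDC (log2 difference -0.77 ± 0.17, adjusted p = 0.00134), with means of 355 ± 145 for CD103+ cDC, 343 ± 59.1 for CD14lo cDC, 704 ± 53.5 for CD14hi moDC and 547 ± 169.7 for Ly6Chi moDC (SD, n = 3).

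Slc46a3, a lysosomal membrane protein, had signals (probe set 1451486_at) of 4599, 3648 and 4198 for CD103+ cDC, 1955, 2472 and 1949 for CD14lo cDC, 317, 526 and 553 for CD14hi moDC, and 184, 259 and 279 for Ly6Chi moDC. CD103+ cDC were highest, CD14lo cDC next without overlap, and both moDC populations were far below. Slc46a3 was 7.899-fold higher in cDC than in moDC (log2 difference 2.98 ± 0.14, adjusted p = 8.12e-12), the largest difference in that direction among the members. Slc15a3, a proton-coupled carrier of histidine and small peptides in lysosomes, had signals (probe set 1420697_at) of 673, 407 and 566 for CD103+ cDC, 1810.5, 2049 and 1870.1 for CD14lo cDC, 3456, 3237 and 3868 for CD14hi moDC, and 4026, 3762 and 5317 for Ly6Chi moDC. Its levels ran in the opposite order, with CD103+ cDC below CD14lo cDC and both below all moDC arrays. Slc15a3 was 3.33-fold lower in CD103+ cDC than in CD14lo cDC (log2 difference -1.73 ± 0.17, adjusted p = 3.61e-07) and 1.82-fold higher in CD14hi moDC than in CD14lo cDC (log2 difference 0.86 ± 0.17, adjusted p = 0.00141). The related lysosomal carrier Slc15a4 was 1.702-fold lower in CD103+ cDC than in CD14lo cDC (log2 difference -0.77 ± 0.15, adjusted p = 8.69e-04), with means of 1275 ± 94.9 for CD103+ cDC, 2219 ± 358 for CD14lo cDC, 1799 ± 219 for CD14hi moDC and 1683 ± 206 for Ly6Chi moDC (SD, n = 3). The creatine transporter Slc6a8 was 2.04-fold lower in cDC (log2 difference -1.03 ± 0.15, adjusted p = 1.56e-05), with means of 235 ± 29.3 for CD103+ cDC, 176 ± 61.9 for CD14lo cDC, 524 ± 61.3 for CD14hi moDC and 403 ± 14.9 for Ly6Chi moDC (SD, n = 3). Slc35f6, a lysosomal protein of unsettled substrate, was 1.98-fold lower in cDC (log2 difference -0.99 ± 0.15, adjusted p = 2.72e-05).

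Carriers of vitamins, choline and cofactors were divided, with 4 of 9 lower and 4 higher in cDC (3 higher with arrays centred at their medians) and all 9 called by the F test. Slc44a2, a choline transporter-like protein, had signals (probe set 1438559_x_at) of 1413, 1717 and 1827 for CD103+ cDC, 7439.5, 9079 and 7875 for CD14lo cDC, 1567, 1437 and 2338 for CD14hi moDC, and 3786, 4065 and 5341 for Ly6Chi moDC. CD14lo cDC were above all other arrays and Ly6Chi moDC came second, while CD103+ cDC and CD14hi moDC overlapped at the bottom. The summed NK cell markers were highest in CD14lo cDC too, from 7215 to 8304, and their part was not tested. Of 3 NK cell markers tested, 2 were lower in CD103+ cDC than in CD14lo cDC (15.3% of all genes). In CD14hi moDC 1 was lower than in CD14lo cDC (6.95%), and in Ly6Chi moDC 2 were (14%). Slc44a2 was 4.82-fold lower in CD103+ cDC than in CD14lo cDC (log2 difference -2.27 ± 0.18, adjusted p = 1.60e-08), and 2.46-fold higher in Ly6Chi moDC than in CD14hi moDC (log2 difference 1.30 ± 0.18, adjusted p = 3.18e-05). The 2 other probe sets of Slc44a2 kept this order, with means of 620 and 158 in CD103+ cDC and 3365 and 1240 in CD14lo cDC. The riboflavin transporter Slc52a3 had signals (probe set 1429292_a_at) of 786, 1172 and 1460.5 for CD103+ cDC, 537, 541 and 312 for CD14lo cDC, 199.98, 276 and 298 for CD14hi moDC, and 153, 101 and 94.5 for Ly6Chi moDC. CD103+ cDC lay above all others, and Slc52a3 was 2.31-fold higher there than in CD14lo cDC (log2 difference 1.21 ± 0.25, adjusted p = 0.00107).

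Slc33a1, which carries acetyl-CoA into the endoplasmic reticulum, was also highest in CD103+ cDC, with means of 959.7 ± 69.5 for CD103+ cDC, 336 ± 118 for CD14lo cDC, 369 ± 60.5 for CD14hi moDC and 220.3 ± 46.9 for Ly6Chi moDC (SD, n = 3) and a 2.69-fold difference from CD14lo cDC (log2 difference 1.43 ± 0.21, adjusted p = 4.90e-05). Folate carriers went the other way. The proton-coupled folate importer Slc46a1 had means of 21.3 ± 28.1 for CD103+ cDC, 79.3 ± 23.5 for CD14lo cDC, 247 ± 55.7 for CD14hi moDC and 282 ± 40.9 for Ly6Chi moDC (SD, n = 3) and lay 3.34-fold lower in cDC, its arrays above 200 being all of moDC. The reduced folate carrier Slc19a1 and the thiamine carrier Slc19a2, both named after their values were seen, were 1.99-fold (log2 difference -0.99 ± 0.14, adjusted p = 1.79e-05) and 1.89-fold lower in cDC (log2 difference -0.92 ± 0.15, adjusted p = 8.62e-05). The myo-inositol importer Slc5a3, chosen in the same way, had means of 361 ± 83.8 for CD103+ cDC, 634 ± 256 for CD14lo cDC, 888 ± 292 for CD14hi moDC and 232 ± 92.7 for Ly6Chi moDC (SD, n = 3) and was 3.33-fold lower in Ly6Chi moDC than in CD14hi moDC (log2 difference -1.74 ± 0.31, adjusted p = 4.35e-04).

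Mitochondrial carriers, the SLC25 family of the inner membrane, were the most numerous members. Of 33, 12 were called between cDC and moDC in either direction and 18 by the F test, against 41.5% and 51.1% of all genes. Slc25a29, a carrier of basic amino acids, had signals (probe set 1423979_a_at) of 567, 733 and 498 for CD103+ cDC, 163, 245 and 158 for CD14lo cDC, 117, 131 and 48.9 for CD14hi moDC, and 30.5, 14.6 and 31.6 for Ly6Chi moDC. CD103+ cDC were above all other arrays, and Slc25a29 lay 2.73-fold higher there than in CD14lo cDC, its arrays above 200 being all of cDC. Slc25a20, which exchanges carnitine and acylcarnitines for fatty acid oxidation, had signals (probe set 1423108_at) of 4874, 2726 and 5185 for CD103+ cDC, 1908, 2151 and 1822 for CD14lo cDC, 1209, 932 and 1051 for CD14hi moDC, and 1700.1, 1218 and 2018 for Ly6Chi moDC. CD103+ cDC again lay above all others, and the difference from CD14lo cDC was 2.07-fold (log2 difference 1.05 ± 0.21, adjusted p = 0.0011), with an adjusted p of 0.235 when replicate 2 was the only CD103+ cDC array. Slc25a20 was 2.13-fold higher in cDC than in moDC (log2 difference 1.09 ± 0.15, adjusted p = 1.11e-05). The glycine carrier Slc25a38, needed for heme synthesis, was 2.17-fold higher in cDC (log2 difference 1.12 ± 0.16, adjusted p = 1.74e-05), and the iron importer Slc25a37 was 2.21-fold lower (log2 difference -1.14 ± 0.17, adjusted p = 2.70e-05). The ADP/ATP exchanger Slc25a5 was 1.22-fold lower in cDC (log2 difference -0.28 ± 0.08, adjusted p = 0.00833).

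Of the 2 nucleoside and nucleobase carriers above the threshold, 1 differed. Slc29a3, which lets nucleosides out of lysosomes, had signals (probe set 1455731_at) of 2736, 3210.2 and 2762 for CD103+ cDC, 4403, 3896 and 4656 for CD14lo cDC, 6006, 4991 and 5093 for CD14hi moDC, and 6449.5, 8652 and 5984 for Ly6Chi moDC. All moDC arrays lay above all cDC arrays, and the cDC mean was 1.71-fold lower (log2 difference -0.78 ± 0.10, adjusted p = 5.92e-06). Of 9 tested genes of nucleoside and adenosine handling, 6 were lower and 1 higher in cDC, with a median log2 difference of -0.44, against 20.7% lower and 20.8% higher over all genes. Nt5e, the ecto-nucleotidase that makes adenosine, was lower (log2 difference -1.30 ± 0.18, adjusted p = 1.05e-05), and the purine nucleoside phosphorylase gene Pnp was lower (log2 difference -0.63 ± 0.10, adjusted p = 2.64e-05), while the thymidine kinase gene Tk1 was higher (log2 difference 0.90 ± 0.16, adjusted p = 1.19e-04).

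Nucleotide sugar carriers of the Golgi differed by less, with 4 of 12 lower and 1 higher in cDC. Slc35c1, the GDP-fucose carrier, had means of 599.7 ± 182 for CD103+ cDC, 1084 ± 121 for CD14lo cDC, 896 ± 75.9 for CD14hi moDC and 1467 ± 135 for Ly6Chi moDC (SD, n = 3) and was 1.79-fold lower in CD103+ cDC than in CD14lo cDC (log2 difference -0.84 ± 0.19, adjusted p = 0.00256). Slc35b2, which supplies the sulphate donor PAPS, was 1.42-fold lower in cDC than in moDC (log2 difference -0.51 ± 0.12, adjusted p = 0.00278). Slc35c2 was 1.53-fold higher in cDC (log2 difference 0.61 ± 0.12, adjusted p = 5.54e-04), with means of 1784 ± 377 for CD103+ cDC, 2238 ± 79.2 for CD14lo cDC, 1146 ± 269.7 for CD14hi moDC and 1452 ± 80.9 for Ly6Chi moDC (SD, n = 3). Slc35a4, of the same family, had means of 1127 ± 398 for CD103+ cDC, 1202 ± 335 for CD14lo cDC, 1423 ± 456 for CD14hi moDC and 2065 ± 83.1 for Ly6Chi moDC (SD, n = 3). The UDP-galactose carrier Slc35a2 was not called by the F test (adjusted p = 0.302). Its log2 difference between cDC and moDC was 0.01 on the probe set used and -0.61, -0.38, 0.04 and 0.13 on others. The UDP-N-acetylglucosamine carrier Slc35a3 spanned 0.11 on the log2 scale over the 4 means.

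Among carriers of chloride, bicarbonate and protons, 4 of 10 were higher and 2 lower in cDC. Slc4a8, a sodium-driven chloride and bicarbonate exchanger, had signals (probe set 1423443_at) of 397, 498 and 527 for CD103+ cDC, 423, 605 and 307 for CD14lo cDC, 215, 387 and 268 for CD14hi moDC, and 72.4, 44.4 and 6.01 for Ly6Chi moDC. Ly6Chi moDC lay below all other arrays, and Slc4a8 was 3.85-fold lower there than in CD14hi moDC (log2 difference -1.94 ± 0.28, -2.81 to -1.47 over the alternatives, adjusted p = 6.19e-05). The sodium and proton exchanger Slc9a7 of the Golgi had means of 744 ± 133 for CD103+ cDC, 466 ± 12.7 for CD14lo cDC, 271 ± 27.7 for CD14hi moDC and 199 ± 22.2 for Ly6Chi moDC (SD, n = 3) and was 2.26-fold higher in cDC (log2 difference 1.17 ± 0.13, adjusted p = 4.01e-07), all cDC arrays being above all moDC arrays. The chloride importer Slc12a2 was 1.795-fold higher in the mean of both cDC populations (log2 difference 0.84 ± 0.21, adjusted p = 0.00309). Its other probe sets were highest in CD14lo cDC, with means of 435 and 267. On them CD103+ cDC, at 111 and 48.8, lay below CD14hi moDC, at 194 and 112, and Ly6Chi moDC had 93 and 44. The potassium and chloride exporter Slc12a7 was 2.48-fold higher in CD14hi moDC than in CD14lo cDC (log2 difference 1.31 ± 0.20, adjusted p = 8.74e-05). The anion exchanger Slc4a2 was not called by the F test (adjusted p = 0.176).

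None of 5 phosphate and sulphate carriers was called by the F test. Between cDC and moDC, 1 of the 5 was called lower in cDC and none higher, against 20.7% and 20.8% of all genes. In CD103+ cDC 1 was lower than in CD14hi moDC (20.3% of all genes) and 1 higher than in Ly6Chi moDC (23.2%). The phosphate carrier Slc20a2 had the smallest range of all members, 0.06 on the log2 scale, with means of 283 ± 57.2 for CD103+ cDC, 293 ± 29.01 for CD14lo cDC, 298 ± 90.7 for CD14hi moDC and 301 ± 95.02 for Ly6Chi moDC (SD, n = 3). Its relative Slc20a1 had means of 2026 ± 575 for CD103+ cDC, 1340.03 ± 354 for CD14lo cDC, 1448 ± 105 for CD14hi moDC and 1136 ± 480.4 for Ly6Chi moDC (SD, n = 3). The anion exchanger Slc26a6 spanned 0.18 on the log2 scale, and the sodium and calcium exchanger Slc8a1 of the plasma membrane spanned 0.17. The mitochondrial sodium and calcium exchanger Slc8b1 was 1.502-fold higher in cDC (log2 difference 0.59 ± 0.16, adjusted p = 0.00535). The lysosomal sialic acid exporter Slc17a5 was 1.34-fold lower in cDC (log2 difference -0.42 ± 0.13, adjusted p = 0.0164), and the vesicular monoamine carrier Slc18a2 was not called by the F test (adjusted p = 0.633). Of the members, 5 carry Slc symbols but encode no carrier, among them the scaffold proteins Slc9a3r1 and Slc9a3r2. Slc9a3r2 was 2.12-fold higher in CD103+ cDC than in CD14lo cDC (log2 difference 1.08 ± 0.19, 0.96 to 1.86 over the alternatives, adjusted p = 3.11e-04). Its 4 other probe sets had means of 759, 148, 1145 and 1320.1 in CD103+ cDC against 157, 29.1, 175 and 187 in CD14lo cDC, a wider gap. The scaffold Slc9a3r1 was not called by the F test (adjusted p = 0.107).

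Seen by population, CD103+ cDC stood apart most often. In CD103+ cDC, 32 members were called lower than in each of the 3 other populations, or 18.9% against 9.95% of all genes, and 17 were called higher than in each, against 9.47% of all genes. At a difference of at least 1 on the log2 scale against each other population, 13 were lower (3.69% of all genes) and 9 higher (3.67% of all genes). The 13 were Slc2a3, Slc2a9, Slc7a11, Slc13a3, Slc15a3, Slc16a1, Slc16a7, Slc16a10, Slc31a1, Slc36a1, Slc37a2, Slc43a2 and Slc48a1, with folds from 2.13 to 16.8. They carry amino acids, monocarboxylates, dicarboxylates, sugars, sugar phosphates, urate, peptides, copper and heme. The 9 were Slc1a4, Slc9a3r2, Slc22a23, Slc25a20, Slc25a29, Slc27a3, Slc33a1, Slc52a3 and Slco3a1, with folds from 2.07 to 41.9. Among the 9, Slc25a29 passed the signal threshold through cDC arrays alone, so its part in the count is a description of that choice. The summed lung epithelial markers were highest in CD103+ cDC as well, and their part in these counts was not tested.

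By the same rule Ly6Chi moDC had 6 members lower than all others (3.05% of all genes) and none higher (0.906% of all genes). The 6 were Slc4a8, Slc16a14, Slc22a23, Slc27a3, Slc30a4 and Slco5a1, and 9 members were called higher than all others by differences under 1 against at least 1 population (3.39% of all genes called higher). Of these, Slc16a14 passed through cDC arrays alone. Its call against CD14hi moDC was lost, with adjusted p up to 0.066, under quantile normalization and without CD14hi moDC replicate 2 or replicate 3. Without the size rule, 12 were called lower in Ly6Chi moDC than in all others (6.52% of all genes). CD14hi moDC had 3 members higher (1.05% of all genes), Slc11a2, Slc13a3 and Slco2b1, and none lower (0.0915% of all genes). Without the size rule these counts were 3 (1.97% of all genes) and 2 (0.595% of all genes). Slco2b1 passed the signal threshold through CD14hi moDC alone, so the choice of members set its place in both counts of 3. CD14lo cDC had none at that size in either direction (0.467% and 0.137% of all genes), and without the size rule 2 were higher (1.35%) and 2 lower (0.686%). The neutrophil markers, which were highest in Ly6Chi moDC, moved with that population, and their part was not tested. All 4 neutrophil markers tested were called higher in Ly6Chi moDC than in each of the 3 other populations, against 3.39% of all genes. Among the 8 neutrophil markers with a probe set, the granule genes Ngp and Camp were near background in every population, with means of 2.57 to 16.9 and 29.8 to 77.5.

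The difference between the 2 conventional populations and that between the 2 monocyte-derived populations share no array. Of 18 members called in both, 17 had opposite signs and 1, Slc13a3, had the same sign, and over all genes 862 had opposite signs and 183 the same. Across the 169 members the 2 differences had a Pearson r of -0.404, and across the 10929 genes tested -0.304. The genes share the arrays and are not independent replicates. Among the 17, Slc36a1 and Slc44a2 were lower in CD103+ cDC than in CD14lo cDC and higher in Ly6Chi moDC than in CD14hi moDC. Slc1a4, Slc22a23 and Slc27a3 were higher in CD103+ cDC than in CD14lo cDC and lower in Ly6Chi moDC than in CD14hi moDC.

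**Figure D4:**
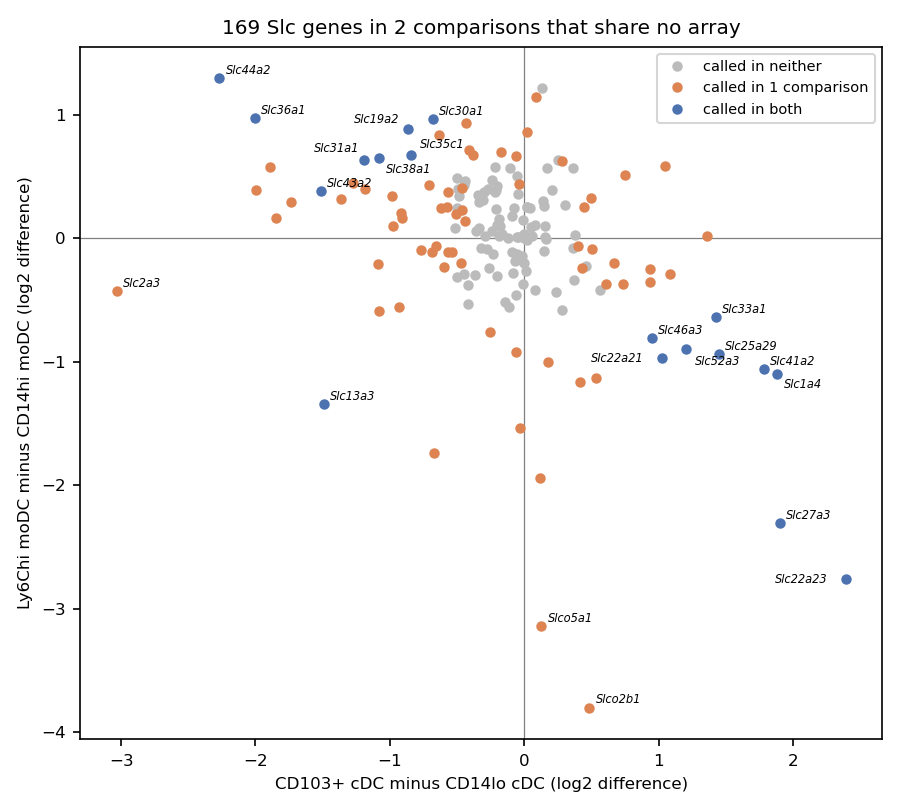
Log2 differences of 169 Slc genes between the 2 conventional populations (x axis, CD103+ cDC minus CD14lo cDC) and between the 2 monocyte-derived populations (y axis, Ly6Chi moDC minus CD14hi moDC). Colour shows whether a gene was called in neither, 1 or both comparisons at a limma adjusted p under 0.05. Of the 18 called in both, 17 lie at the upper left or lower right, and Slc13a3 lies at the lower left.

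Other probe sets gave a check on the choice of the brightest. Of the members, 88 had at least 1 other probe set above the filter on low signals. For the members called between cDC and moDC, 81 of 84 such probe sets had the sign of the one used, and none had the opposite sign by more than 0.5 on the log2 scale. The other probe sets of Slc7a2 (-2.38, -1.72 and -1.91), Slc13a3 (-1.79), Slc30a1 (-0.97) and Slco5a1 (1.80) had log2 differences between cDC and moDC of the same sign as those above. Of the 169 members, 44 were called in none of the 7 comparisons, and these include Slc7a1, Slc8a1, Slc15a2, Slc20a2, Slc30a7 and Slc35a3. The share of all genes called in none was not worked out, so the 44 cannot be read as few or many.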

How the data were processed

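The deposited signals are linear intensity values made by the authors with MAS5, per the submitters' processing notes, and every array had the same 2% trimmed mean, 500.003. No MAS5 version or detection call is given in the sources used here. The 45101 probe sets comprise 64 controls, which were left out, and 34945 with a single symbol in the platform annotation, 932 with several and 9160 with none. Probe sets brighter than the array median on 3 or more arrays passed, and a gene was represented by its brightest. To each signal 50.0003 (10% of the trimmed mean) was added before log2. Population means were fitted by limma 3.58.1 in R 4.3.3 with lmFit and a trended eBayes (8 residual degrees of freedom, two-sided), after a test on simulated data. P-values set each difference against the spread between replicate samples, each a pool of 20 mice, whose number limits the precision. The spread between single mice was not measured. The members and lists were chosen with earlier results of these data known. Classes follow family numbers, and Slc7a6os, Slc2a4rg-ps, Slc49a4 and Slc43a3 were moved once members were seen. Genes were named by a rule: per class up to 4 of the widest range among those called by the F test and the one of the highest mean signal, those at least 1 on the log2 scale from all 3 other populations, the 6 of the smallest range, 3 on each side of the threshold, and up to 4 called genes per pathway list. Alternatives were other signal thresholds (100, 400, or the mean over arrays), quantile normalization, median centring, pseudocounts of 2% and 20%, other filters, averaged probe sets, fits of the compared arrays alone or without the trend, a replicate block, and leaving out arrays. RefSeq promoters matched 129 members.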

Additional observations from a re-analysis of the deposited data

How the results depend on the processing

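Over the 169 members and 7 comparisons, 489 differences were called. None changed sign under any setting that tested it, and 327 kept sign and call under every setting that tested them. Not every setting tested all of them. The filter at the 75th percentile left out members, and the fits of the compared arrays alone left out the lineage comparison. The other called differences lost the call under at least 1 processing setting (136) or without 1 array (113), some under both. The 136 include calls lost with replicate 2 as the only CD103+ cDC array, a setting that leaves out arrays and does not change the processing. For counts, the range when each array was left out in turn was 33 to 36 members higher and 59 to 65 lower in the lineage comparison, against 35 and 60. For Ly6Chi moDC against CD14hi moDC it was 10 to 19 higher, against 18, and that count was 58 with median centring and 10 with no filter. With replicate 2 as the only CD103+ cDC array, chosen after seeing the data, members higher and lower in CD103+ cDC were 13 and 25 against CD14lo cDC and 19 and 39 against CD14hi moDC. Every other count stayed within 1.5 times its main value. With a replicate block 35 members were higher and 62 lower in cDC, and no count moved by over 1.5 times. Same-numbered samples of 2 populations deviated with correlations from -0.106 to 0.236 over 18 pairs, 8 of them over 0.1. Samples of different numbers deviated with correlations from -0.265 to 0.235. The numbers were not taken to pair samples, and these overlapping ranges do not settle whether they do. The filter at the 75th percentile left 119 members tested. Genes near a signal of 50 are limited by background, and their folds depend on the pseudocount.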
